A study of Mus musculus with 5 samples.

Results

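The genes of the tumour necrosis factor (TNF) superfamily, its receptors and the Traf adaptors were examined for binding sites of EBF1 in mouse pro-B cells. The members were all protein-coding genes of the RefSeq GRCm38 gene table whose symbols start with Tnfrsf, with Tnfsf, or with Traf followed by a digit. There were 42 such genes among 21521 protein-coding genes: 20 receptor genes (Tnfrsf), 12 ligand genes (Tnfsf), 7 adaptor genes (Traf1 to Traf7) and 3 Traf3ip genes. The symbols do not cover the family exactly, since the Traf3ip genes encode proteins named for binding TRAF3 and are not TRAFs, and Tnfsfm13 is a readthrough gene over Tnfsf12 and Tnfsf13. The Traf3ip genes were therefore counted apart.

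The sites came from 1 library, a chromatin immunoprecipitation with an antibody against EBF1 from formaldehyde-crosslinked cells. The cells were fetal liver cells of genotype Ebf1-/- that had been transduced with wild-type EBF1, the early B-cell factor that B lymphopoiesis requires, so the EBF1 measured was the introduced protein. The series holds 5 libraries. The other 4 (2 inputs and 2 libraries from cells with the EBF1 form YmA) were not analysed here. The list holds 7494 sites of 300 bp in 3 classes named by the authors: 2550 are CTD-ind, 4055 YmA-ind and 889 YmA-dep. No source used here says how the classes were made, and their names serve as labels. The list gives no height or score, so site strength and read depth are unknown. Whether it holds every EBF1 site of the library or a selection is also unknown, and every share of genes with a site refers to this list. With 1 library no value has a replicate and no test between conditions was possible. Pro-B identity could not be checked against markers, because the list holds no expression values. Which vector or promoter drove the transduced EBF1 is not stated in the labels.

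TNF superfamily ligands are mostly trimeric proteins of the cell surface that bind receptors with cysteine-rich repeats. TRAF proteins bind the cytoplasmic tails of many of these receptors and pass the signal to the NF-kB and MAP kinase pathways, while receptors with a death domain can also start apoptosis. In B cells the family is known for the receptors of the survival factor BAFF and for TRAF2 and TRAF3, which together hold back the kinase NIK and the alternative NF-kB pathway.

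Sites were found at 13 of the 42 genes, and they were unevenly spread over the roles. A site belonged to a gene when its centre lay inside the gene, or when that gene was the nearest protein-coding gene within 100 kb. Of the adaptor genes 4 of 7 had a site (57.1%, exact 95% binomial interval 18.4 to 90.1%), of the receptor genes 7 of 20 (35.0%, 15.4 to 59.2%), of the Traf3ip genes 1 of 3 (33.3%, 0.84 to 90.6%) and of the ligand genes 1 of 12 (8.33%, 0.211 to 38.5%). Over all protein-coding genes the share was 19.6% (4213 of 21521). The intervals of all 4 roles included that share and overlapped each other. For the 42 genes together the share was 31.0% (17.6 to 47.1%), which also included 19.6%. With limits of 20 and 10 kb, 11 and 10 of the 42 genes had a site, against 17.9% and 17.0% of all protein-coding genes, and when a site counted for every gene within 10 kb, 12 did, against 22.3%. These intervals cover counting error only, and neighbouring family genes are not independent draws.

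**Figure D1:**
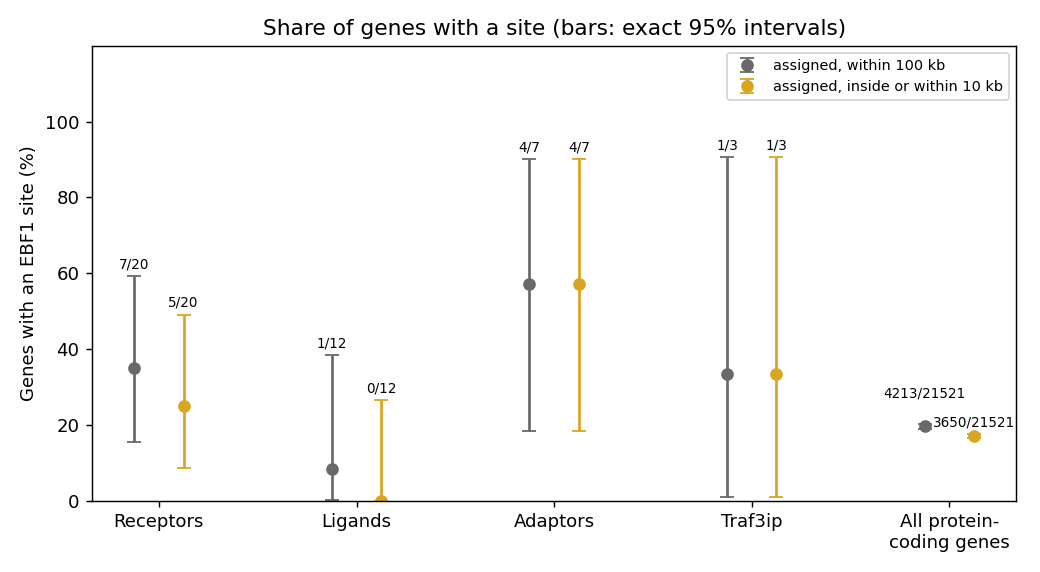
Share of genes with an EBF1 site (%) for each role and for all protein-coding genes, with sites assigned within 100 kb (grey) or only inside the gene or within 10 kb (yellow). Points are shares, bars exact 95% binomial intervals, and the fractions give genes with a site over genes. Adaptors stood at 4 of 7 under both limits, while ligands went from 1 to 0 of 12.

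The promoters that a site touched are shown first. The RefSeq promoter table (GRCm38) gives windows from 250 bases before to 50 bases after an annotated start, and it held 38 windows for 34 of the 42 genes. A site overlapped 3 of these windows, at Traf3, at Traf3ip3 and at an internal start of Tnfrsf9. Over all protein-coding genes, 2.75% of windows were overlapped (579 of 21045). The sequences below are the windows of these genes, 5′ to 3′ on the strand of the gene, with letters matching CCCNNGGG or CCCNNGAG on either strand in capitals.
Traf3, chr12:111166120-111166419, plus strand: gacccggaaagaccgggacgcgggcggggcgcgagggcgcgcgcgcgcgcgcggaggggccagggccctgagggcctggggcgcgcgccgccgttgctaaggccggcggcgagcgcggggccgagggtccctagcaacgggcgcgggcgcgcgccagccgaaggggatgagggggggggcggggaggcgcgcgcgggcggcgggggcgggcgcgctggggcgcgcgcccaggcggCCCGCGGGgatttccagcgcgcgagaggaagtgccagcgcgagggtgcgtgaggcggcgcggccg
Traf3ip3, chr1:193201497-193201796, minus strand: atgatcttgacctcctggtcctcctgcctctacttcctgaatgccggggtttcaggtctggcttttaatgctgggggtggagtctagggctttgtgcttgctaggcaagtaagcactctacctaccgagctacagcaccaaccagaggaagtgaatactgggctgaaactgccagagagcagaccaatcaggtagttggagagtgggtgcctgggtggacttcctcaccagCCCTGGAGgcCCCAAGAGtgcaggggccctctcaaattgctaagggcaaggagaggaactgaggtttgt
Tnfrsf9, chr4:150927749-150928048, plus strand: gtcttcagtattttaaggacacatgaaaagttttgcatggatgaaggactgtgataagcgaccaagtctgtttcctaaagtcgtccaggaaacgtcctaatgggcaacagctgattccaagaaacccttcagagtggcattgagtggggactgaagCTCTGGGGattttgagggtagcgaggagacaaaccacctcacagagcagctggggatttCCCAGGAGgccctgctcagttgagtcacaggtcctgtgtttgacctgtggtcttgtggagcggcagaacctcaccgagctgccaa

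EBF1 is known to bind an inverted repeat, here the letters CCCNNGGG with T before and A after them. None of the 38 windows of these genes held this full motif on either strand, against 0.965% of all windows (203 of 21045) and with an exact 95% interval for 0 of 38 that reaches 9.25%. Among all windows, 10.7% of those overlapped by a site held the motif (62 of 579), against 0.689% of those that no site overlapped. The shorter core CCCNNGGG, which lies within the full motif, was found in 6 of the 38 windows (15.8%, against 15.8% of all windows). CCCNNGAG, which differs from the core at 1 letter and was searched after the sequences had been seen, was found in 9 of 38 (23.7%, against 27.2% of all windows). The window of Traf3 is 84% G and C and holds 1 core match, 15 bases before the start. The windows of Traf3ip3 and Tnfrsf9 hold 2 matches to CCCNNGAG each and none to the core. Such matches are common in windows overlapped by a site: over all genes, 46.6% of them held the core (270 of 579) and 47.3% held CCCNNGAG (274 of 579). All 5 matches at Traf3, Traf3ip3 and Tnfrsf9 lie inside the site of their gene. The sites cover most of these windows, 211, 204 and 227 of the 300 bases in that order, so most letters there lie inside a site. A match of letters does not show where the protein sat.

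Among the receptor genes, Tnfrsf1b had the most sites when sites were assigned by gene span. It encodes TNF receptor 2, which lacks a death domain and recruits TRAF2. The gene lies on chromosome 4 (145212368 to 145246870, minus strand) and had 4 sites. A YmA-ind site (145246443 to 145246742) was centred 278 bp downstream of the start, inside the gene. Inside it were also a YmA-dep site (145233350 to 145233649), 13.4 kb from the start, and a YmA-ind site (145219685 to 145219984), 27.0 kb from the start. The fourth, YmA-ind, lay 2.32 kb beyond the 3′ end (145209898 to 145210197). The sites thus ran from one end of the gene to the other, with gaps of 9.79, 13.7 and 13.1 kb between centres. By this assignment Tnfrsf1b was the only receptor gene here with more than 1 site, and 2.99% of all protein-coding genes had 3 or more. When the nearest start decided, Tnfrsf1b and Tnfrsf19 had 2 sites each. Its neighbour Tnfrsf8, the gene of CD30, lies 20.3 kb away and had none.

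Both TNF receptor genes carried sites inside the gene, but of different classes. Tnfrsf1a encodes TNF receptor 1, the receptor with a death domain, and lies on chromosome 6 (125349723 to 125362483). Its single site was CTD-ind (125360860 to 125361159), 11.3 kb into the gene and 1.47 kb from its 3′ end. The gene Plekhg6 lies 1.64 kb from that site's centre. Tnfrsf9 encodes CD137, a costimulatory receptor of activated T cells, and had 1 CTD-ind site on chromosome 4 (150927822 to 150928121). This site was centred 27.5 bp upstream of the internal start at 150927999, and lay 7.82 kb inside the gene's 5′ end.

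The receptors of the BAFF system each lay at a different distance from a site. Tnfrsf13c encodes the BAFF receptor, on which the survival of mature B cells depends, and spans 2.64 kb on chromosome 15 (82221742 to 82224380, minus strand). A CTD-ind site (82218926 to 82219225) lay 2.67 kb beyond its 3′ end, and the next protein-coding gene, Shisa8, was 6.23 kb from that site. Tnfrsf13b, the gene of TACI, had a YmA-ind site 17.7 kb upstream of its start on chromosome 11 (61108874 to 61109173). Tnfrsf17, the gene of BCMA, a receptor of plasma cells, had no assigned site, and the nearest site lay 49.8 kb away. The ligand gene Tnfsf13b, which encodes BAFF itself, had none either, with the nearest site 766 kb away.

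The remaining receptor genes with a site were Tnfrsf19 and Tnfrsf11a. Tnfrsf19, the gene of the orphan receptor TROY, carried a CTD-ind site 1.22 kb from its start, within the gene on chromosome 14 (61045485 to 61045784). That site also fell inside the non-coding gene Gm41167, and Tnfrsf19 kept no site when non-coding genes competed. Tnfrsf11a, the gene of RANK, the receptor that drives osteoclast formation, had a YmA-dep site on chromosome 1 (105914945 to 105915244). That site lay 65.7 kb beyond the 3′ end, inside a non-coding gene, with the coding gene Zcchc2 at 75.3 kb, and it was the farthest of the 21 sites from its gene. The other 13 receptor genes had no assigned site: Tnfrsf4 (OX40), Tnfrsf8, Tnfrsf10b (a TRAIL receptor), Tnfrsf11b (osteoprotegerin), Tnfrsf12a (Fn14), Tnfrsf14 (HVEM), Tnfrsf17, Tnfrsf18 (GITR), Tnfrsf21 (DR6), Tnfrsf22, Tnfrsf23, Tnfrsf25 (DR3) and Tnfrsf26. A CTD-ind site assigned to Ttll10 lay 3.57 kb from Tnfrsf18. Tnfrsf22, Tnfrsf23 and Tnfrsf26 lie side by side on chromosome 7 and are close paralogs, so the placing of reads there is uncertain. Their nearest sites were 97.5 to 156 kb away.

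**Figure D2:**
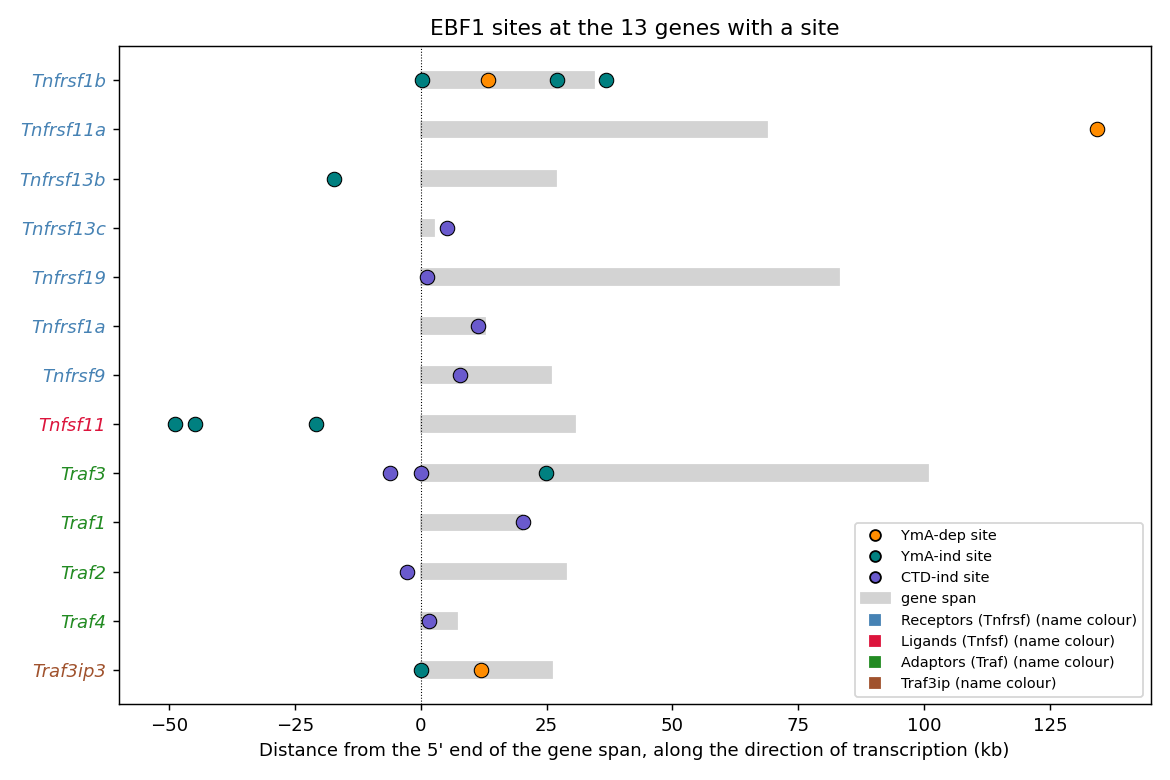
Positions of the 21 sites at the 13 genes with a site, drawn to scale along the direction of transcription, in kb from the 5′ end of the gene span (0). Grey bars are gene spans, points are site centres coloured by class, and the colour of the name gives the role. Sites of Tnfrsf1b run along the whole gene, 2 of the 3 sites of Traf3 lie at or before its start, and the 3 sites of Tnfsf11 all lie upstream.

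Ligand genes had 3 sites, or 25.0 per 100 genes, against 32.9 per 100 over all protein-coding genes. Tnfsf11, which encodes RANKL, the ligand of RANK, was the single ligand gene with any. It lies on chromosome 14 (78277446 to 78308043, minus strand) and had 3 YmA-ind sites, all upstream and none within 20 kb. Their centres lay 20.9 kb (78328756 to 78329055), 44.9 kb (78352825 to 78353124) and 48.9 kb (78356786 to 78357085) from the start. The next coding gene, Akap11, was 135 kb or more from each of them. The other 11 ligand genes had none: Tnfsf4 (OX40 ligand), Tnfsf8 (CD30 ligand), Tnfsf9 (CD137 ligand), Tnfsf10 (TRAIL), Tnfsf12 (TWEAK), Tnfsf13 (APRIL), Tnfsf13b, Tnfsf14 (LIGHT), Tnfsf15, Tnfsf18 (GITR ligand) and Tnfsfm13. A count of 0 of 12 genes within 10 kb has an exact 95% interval up to 26.5%, which includes the 17.0% of all protein-coding genes under that limit.

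By median, ligand genes had more chromosome around them in which a site would have been theirs than the other roles. The stretch of chromosome assigned to a gene had a median of 85.5 kb for ligands, 35.5 kb for receptors, 43.0 kb for adaptors and 44.0 kb for all protein-coding genes. In total it was 1.0 Mb for the 12 ligand genes and 1860 Mb for the 21521 protein-coding genes. Of all genes with under 20 kb, 9.78% had a site, and of those with 20 to 50 kb, 17.0% did. The shares were 23.0% with 50 to 100 kb, 27.2% with 100 to 200 kb and 31.1% with 200 kb and over. In the same order these bins held 2, 3, 2, 4 and 1 ligand genes, and only the 1 in the last bin had a site. Per Mb of this stretch there were 3.0 sites at ligand genes (exact Poisson 95% interval 0.619 to 8.77), 7.99 at receptor genes (3.83 to 14.7), 15.5 at adaptor genes (5.70 to 33.8) and 3.81 over all protein-coding genes. The adaptor and receptor intervals lay above 3.81, the latter with a lower bound of 3.83, and the ligand interval included it. Sites at 1 gene share their surroundings, so these intervals are too narrow. Of the 10 receptor sites, 4 were at Tnfrsf1b alone. The rates were also not matched for the length of the stretch. Over all genes the share with a site rose far less than that length, so short stretches tend to give higher rates per Mb.

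The distance to the nearest site, whichever gene it was assigned to, was ordered like the shares of genes with a site. Its median was 2.71 kb for adaptors, 20.9 kb for receptors, 79.6 kb for Traf3ip genes, 147 kb for ligands and 82.8 kb for all protein-coding genes. All 7 adaptor genes and 15 of 20 receptor genes lay nearer to a site than the median gene, against 3 of 12 ligand genes. Ligand distances ran from 20.9 kb at Tnfsf11 to 3660 kb at Tnfsf10, and receptor distances from 0 to 458 kb at Tnfrsf11b, so the roles overlapped. Several ligand genes are neighbours and share these distances: Tnfsf4 with Tnfsf18 (76.5 kb apart), Tnfsf15 with Tnfsf8 (86.1 kb), Tnfsf9 with Tnfsf14 (81.7 kb), and Tnfsf12 with Tnfsf13 and Tnfsfm13.

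**Figure D3:**
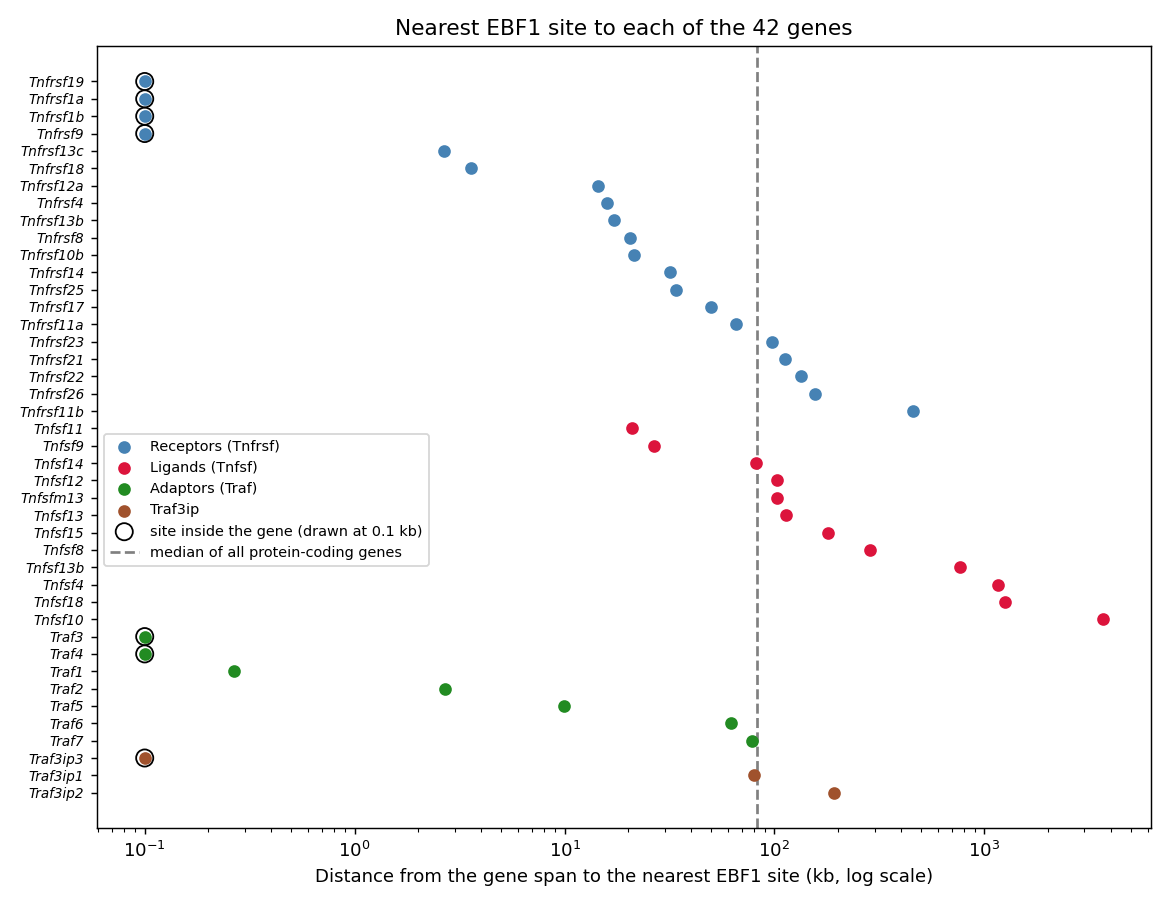
Distance from each of the 42 genes to the nearest EBF1 site of the list (kb, log scale), grouped and coloured by role. Each point is a gene, ringed points have a site inside the gene and are drawn at 0.1 kb, and the dashed line is the median of all protein-coding genes, 82.8 kb. All 7 adaptors lie to the left of the line and 9 of 12 ligands to the right.

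Among the adaptor genes, no site lay farther than 10 kb from its gene (6 of 6 within, 54.1 to 100%). Of all assigned sites 79.5% lay that near, a share inside the interval. Traf3 encodes the adaptor that marks NIK for degradation and spans 101 kb on chromosome 12 (111166321 to 111267155, plus strand). It had 3 sites. A CTD-ind site (111166209 to 111166508) was centred 11.5 bp upstream of the annotated start, over the promoter window printed above. Another CTD-ind site (111159975 to 111160274) lay 6.25 kb upstream of the start, and a YmA-ind site (111190996 to 111191295) lay 24.8 kb into the gene. Both CTD-ind sites also fell inside the non-coding gene 4930595D18Rik.

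The other adaptor genes with a site had 1 each, all CTD-ind. Traf2, whose product joins TRAF3 to the ubiquitin ligases cIAP, had its site on chromosome 2 (25549501 to 25549800), 2.71 kb upstream of the start and inside a non-coding gene. The next coding gene, Edf1, was 8.17 kb from it. Traf1, whose product lacks the RING domain of the other family members and binds TRAF2, had its site on chromosome 2 (34941335 to 34941634), 266 bp beyond the 3′ end and 20.3 kb from the start. Traf4 had its site inside the gene on chromosome 11 (78163809 to 78164108), 1.59 kb from the start, and the coding gene Nek8 was 2.15 kb from it. Traf5, Traf6, the adaptor of CD40 and RANK that also serves Toll-like receptors, and Traf7 had none. A CTD-ind site assigned to Rd3 lay 9.90 kb from Traf5, while the nearest sites to Traf6 and Traf7 were 62.4 and 78.0 kb away.

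Of the Traf3ip genes, Traf3ip3 had sites. It encodes a membrane-bound partner of TRAF3 and lies on chromosome 1 (193175504 to 193201546, minus strand). A YmA-ind site (193201401 to 193201700) was centred 4.5 bp upstream of the start, the nearest of all 21 sites to a start. A YmA-dep site (193189378 to 193189677) lay 12.0 kb into the gene. Traf3ip1, a gene of ciliary transport, and Traf3ip2, which encodes the interleukin-17 adaptor Act1, had none, with nearest sites at 79.6 and 192 kb.

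By class, the 21 sites comprised 9 CTD-ind (42.9%, 21.8 to 66.0%), 9 YmA-ind (42.9%, 21.8 to 66.0%) and 3 YmA-dep (14.3%, 3.05 to 36.3%). Over the whole list these shares were 34.0%, 54.1% and 11.9%, each within the interval. The roles differed in their counts. At adaptor genes 5 of 6 sites were CTD-ind (83.3%, 35.9 to 99.6%), at receptor genes 4 of 10, at the ligand gene Tnfsf11 0 of 3 and at Traf3ip3 0 of 2. Counted by gene, 4 of 7 adaptor genes had a CTD-ind site (57.1%, 18.4 to 90.1%), against 9.32% of all protein-coding genes, and 4 of 20 receptor genes did (20.0%, 5.73 to 43.7%). Of the 12 shares by role and class, the CTD-ind share of adaptor genes was the one whose interval did not include the share of all genes. That exception was lost when non-coding genes also competed for sites: the sites of Traf2 and both CTD-ind sites of Traf3 lie in non-coding genes, which left CTD-ind sites at 2 of 7 adaptor genes (28.6%, 3.67 to 71.0%, against 7.62% of all protein-coding genes) and 2 CTD-ind sites among 3. YmA-ind sites were at 5 of the 42 genes (11.9%, against 12.2% of all genes) and YmA-dep sites at 3 (7.14%, against 3.26%). The YmA-dep sites were at Tnfrsf1b, Tnfrsf11a and Traf3ip3, and Tnfrsf1b, Traf3ip3 and Traf3 were the genes with sites of more than 1 class.

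**Figure D4:**
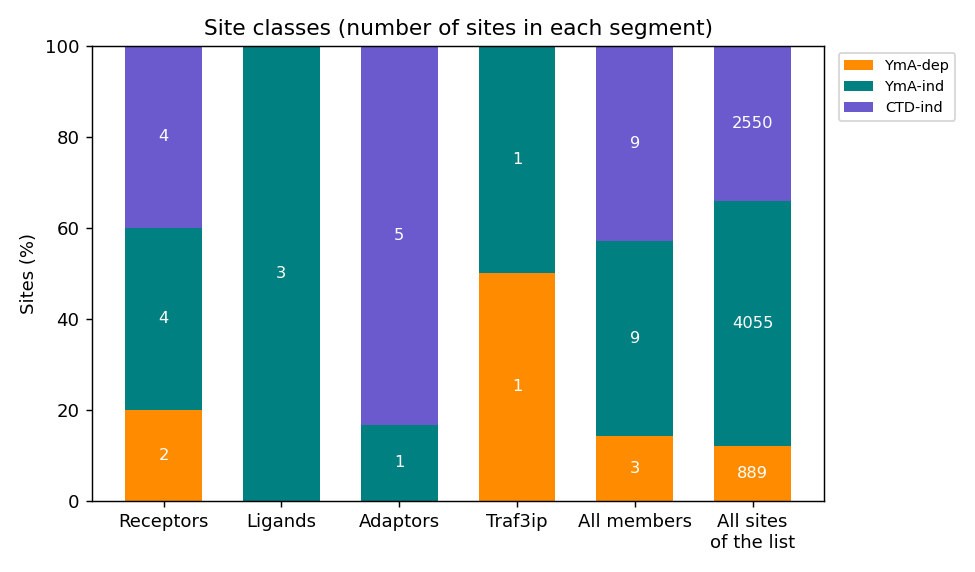
Share of sites (%) in each class for every role, for the 42 genes together and for all 7494 sites of the list. Numbers in the segments are sites. Adaptor sites were CTD-ind in 5 of 6 cases, and the 3 ligand sites, all at Tnfsf11, were YmA-ind.

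By position, 10 of the 21 sites lay inside their gene (47.6%, 25.7 to 70.2%), 6 outside within 10 kb and 5 beyond 10 kb. The shares outside were 28.6% and 23.8%. Over all 7082 assigned sites, 59.6% lay inside, 20.0% outside within 10 kb and 20.5% beyond. Within 1 kb of an annotated start were 4 of the 21 sites (19.0%, 5.45 to 41.9%), at Traf3, Traf3ip3, Tnfrsf1b and Tnfrsf9, against 16.8% of all assigned sites whose gene has an annotated start. By gene, 4 of the 34 genes with an annotated start had such a site (11.8%, 3.30 to 27.5%), against 5.73% of all. All 9 CTD-ind sites lay within genes or at most 10 kb away, with a median distance of 2.71 kb from the start. Of all assigned CTD-ind sites, 82.5% lay that near, with a median of 7.17 kb from the start. The 5 sites beyond 10 kb were 4 YmA-ind, at Tnfsf11 and Tnfrsf13b, and 1 YmA-dep, at Tnfrsf11a. Over the whole list, 30.1% of assigned sites beyond 10 kb were CTD-ind (436 of 1450), and 36.5% of those nearer. Whether a site inside a gene lay in an exon, an intron or a UTR was not analysed here.

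The rest of the pathway was read from a list of 48 genes that have other symbols. Of these, 15 had a site (31.2%, 18.7 to 46.3%), again against 19.6% of all protein-coding genes. Receptor genes with other names had sites at 4 of 8 members and ligand genes at 1 of 7. Receptor-proximal genes had them at 3 of 8, kinases of NF-kB at 1 of 8, NF-kB subunits and inhibitors at 4 of 11, and inhibitors of signalling at 2 of 6. Relt, an orphan receptor gene, had the most, 3 sites inside the gene on chromosome 7, 2 YmA-ind and 1 CTD-ind.

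Other genes of this list are named after their values were seen. Cd40, the receptor gene for T-cell help to B cells, had a CTD-ind site 0.341 kb outside the gene on chromosome 2 (165055124 to 165055423). Fas and Ngfr had a YmA-ind site inside the gene. Lta, the ligand gene next to Tnf, had a YmA-ind site on chromosome 17 (35205239 to 35205538) centred 37.5 bp upstream of an annotated start, and that site lay 3.38 kb from Tnf and 9.08 kb from Ltb, which were assigned none. The genes of the inhibitors A20 (Tnfaip3) and ABIN1 (Tnip1) each had a CTD-ind site, at Tnfaip3 0.417 kb upstream of the start on chromosome 10 (19015678 to 19015977). Map3k14, the gene of NIK, had none, and neither had Birc2 and Birc3, the genes of the cIAP ligases. Of the NF-kB subunit genes, Relb had 2 sites inside the gene, Nfkb1 and Rela had 1 each outside it, and Nfkb2 and Rel had none. The remaining genes of the list with a site were Nfkbid, Edaradd, Fadd, Tifa and Ikbkb.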

How the data were processed

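The deposited list holds, per the file headers, the chromosome, start, end, name and text class of each site; its positions are in bases and carry no score. Bowtie2, SAMtools and deepTools are named in the submitters' processing notes, as is the build GRCm38 (mm10). Not given in the sources used here are the peak caller and threshold, the step behind the common width of 300 bp and the making of the classes. These steps decide which sites are listed.

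Positions are given 1-based. Genes came from the RefSeq GRCm38.p6 table. From it 345 genes of other scaffolds were left out, and in addition the genes of chromosome Y, which kept 49209 genes on 20 chromosomes. Starts and strands came from the RefSeq promoter table, which covers 17274 protein-coding genes. A site centre inside several genes went to the shortest, otherwise to the nearest within 100 kb. The stretch of chromosome assigned to a gene was measured on a 1 kb grid. Shares have exact (Clopper-Pearson) 95% intervals and rates exact Poisson intervals. Python 3.11.15, pandas 2.3.3, scipy 1.17.1 and matplotlib 3.10.9 were used. The assignment was checked on simulated data: 200 of 200 planted sites returned to their gene among 21521. These sites were planted only inside or close beside genes that stand clear of their neighbours. Overlapping genes, close neighbours and distant sites were therefore not checked.

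The members and lists were chosen with earlier results of these data known. The rule for named genes took every member, and pathway genes with 3 or more sites. Alternatives varied the distance limit, the assignment, the gene set, the merging of neighbouring sites within 12.5 kb, the distance called near and the motif. Overlap of the whole site, 1 mismatch and CCCNNGAG were chosen after seeing the data. No test was run, since each group holds 1 library.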

Additional observations from a re-analysis of the deposited data

How the results depend on the processing

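The number of the 42 genes with a site was 13 with a limit of 100 kb, with none and with any overlap of the site. It was also 13 with the nearest start deciding, but then only the 34 genes with an annotated start could have a site. That share was 38.2% (22.2 to 56.4%), against 21.0% of the 17274 protein-coding genes with an annotated start. It was 12 when a site counted for every gene within 10 kb, 11 with a limit of 20 kb and 10 with a limit of 10 kb. When non-coding genes also competed for sites it was 9 (21.4%, 10.3 to 36.8%), against 16.5% of all protein-coding genes. Receptor genes with a site ranged from 5 to 7, adaptor genes from 3 to 5 and Traf3ip genes stayed at 1. The single ligand gene with sites was lost (0 of 12) with limits of 10 and 20 kb, when every gene within 10 kb counted and when non-coding genes competed, since the sites of Tnfsf11 lie beyond 20 kb and, in the last case, nearer to a non-coding gene. The number of sites at these genes fell from 21 to 13 when non-coding genes competed, since sites inside or nearer to non-coding genes then left their gene. The class shares over all sites of the 42 genes stayed within their intervals, while CTD-ind sites at adaptor genes went from 5 of 6 to 2 of 3 when non-coding genes competed. When the nearest start decided, Tnfrsf1b went from 4 sites to 2 and Tnfrsf19 from 1 to 2, and Tnfrsf11a had none. Sites within 1 kb of a gene end were 19.0% (4 of 21, 5.45 to 41.9%), against 16.1% of all assigned sites (1140 of 7082). The share at these genes was also 19.0% within 500 bp, and 38.1% (8 of 21) within 2.5 kb. For these 2 distances the share over all assigned sites is not given here. Within 2.5 kb of an annotated start were 28.6% of the 21 sites (11.3 to 52.2%), against 23.2% of all assigned sites whose gene has an annotated start. The full motif was found in 0 windows and the core CCCNNGGG in 6. The full motif with 1 mismatch was found in 9 (23.7%, 11.4 to 40.2%, against 17.7% of all windows), and CCCNNGAG also in 9. The core and the form with 1 mismatch match every full motif, so by construction they are found at least as often. This does not hold for CCCNNGAG. No paired analysis was possible because each group holds 1 library and no test was run. With no read depth in the list, the absence of a site does not show the absence of binding.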
